A study of Mus musculus with 12 samples.

Results

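The genes described here are 8 genes of the IL-17 program of innate-like T cells: Rora, Il17a, Il17f, Il23r, Il17re, Ccr6, Sdc1 and Serpinb1a. They were chosen by gene symbol among the 48709 rows of the count table, with earlier results of these data known. All 8 symbols were found. All 8 passed the filter on low counts in both comparisons of genotype and in the comparison of WT pools, and 7 passed it in the comparison of miR-155KI pools, where Il17f was left out.

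IL-17A and IL-17F are secreted cytokines that act on epithelial and stromal cells to recruit neutrophils and to guard barrier tissues. In the thymus a small share of invariant natural killer T (iNKT) cells is committed to making them, and these iNKT17 cells lie in the NK1.1- fraction. Such cells are known to depend on ROR family nuclear receptors, to sense IL-23 through a receptor that includes the Il23r product, and to carry surface proteins such as CCR6 and syndecan-1 that set them apart from other iNKT cells.

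RNA was sequenced from iNKT cells of the thymus of C57BL/6J mice aged 7 weeks, in 4 groups of 3 libraries, one for each genotype (WT or miR-155KI) in each pool (NK1.1- or NK1.1+). miR-155KI cells came from mice with 2 copies of a conditional miR-155 knock-in at the Rosa26 locus that is switched on by Cre under the CD4 promoter, and so in the whole T cell lineage and not in iNKT cells alone. WT cells came from littermates without CD4Cre that carried the knock-in allele. Cells were depleted of CD8+ thymocytes and sorted on TCR beta, CD1d tetramer, CD44 and NK1.1, and NK1.1 separates the less mature NK1.1- pool, which mixes several iNKT types, from mature NK1.1+ cells. The study's methods state that biological replicates were pooled, while the tables hold separate libraries, so a p-value measures only how far the libraries of a group spread.

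Libraries held between 12819476 and 20518257 counts. The host transcript of miR-155, Mir155hg, was 9.65 to 13.7 CPM (counts relative to library size, scaled by TMM) in the WT libraries and 95.2 to 144 CPM in the miR-155KI libraries, as labelled. T cell receptor constant and CD3 genes summed to at least 3964 CPM in every library, and Trav11, Traj18 and Klrb1c, which mark the iNKT receptor and NK1.1, summed to between 341 and 380 CPM in NK1.1- libraries and between 877 and 1385 CPM in NK1.1+ libraries. The 4 Y-linked genes examined summed to 154 CPM (NK1.1-) and 206 CPM (NK1.1+) in WT replicate 1, to between 171 and 252 CPM in miR-155KI libraries, and to only between 11.7 and 20.1 CPM in WT replicates 2 and 3. Each comparison of genotype is therefore also given with WT replicate 1 as the only WT library. With all WT libraries, genotype and the sex-linked difference cannot be told apart. The fit with 1 WT library does not separate genotype from other features of that replicate. It also cannot show how far WT libraries vary. In the NK1.1- pool the 7 macrophage and dendritic cell markers summed to 67.4 CPM in WT replicate 1. They summed to 12.8 and 10.3 CPM in WT replicates 2 and 3. Plasma cell markers (999 CPM) and Cd8a (16.8 CPM) were also highest in WT replicate 1 among the WT libraries of that pool.

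Sequences were examined for matches that relate the 8 genes to the knocked-in microRNA and to ROR receptors. The mature miR-155-5p (RefSeq, GRCm38.p6, chr16:84714143-84714165, plus strand) is shown because its seed, bases 2 to 8 in capitals, sets which messages it can pair with, and the Rora stretch is shown because it holds the only match to that seed, AGCATTA in capitals, in an annotated 3′ UTR of the 8 genes (GENCODE M21, GRCm38, window chr9:69379503-69379529, plus strand).
mmu-miR-155-5p: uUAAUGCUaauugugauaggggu
Rora 3′ UTR: tcgcaacaatAGCATTAtaatatatta
The match starts at base 552 of the Rora 3′ UTR, which is 9285 bases long in the longest transcript, while the longest annotated 3′ UTRs of the other 7 genes are between 73 and 1908 bases. Of 21173 genes with a 3′ UTR, 9.54% hold AGCATTA and 3.40% hold AGCATTAA, the longer form that Rora lacks. A match in letters does not show a functional site.

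The promoter windows, 250 bases before to 50 after the start site (RefSeq, GRCm38.p6), were searched on both strands for AGGTCA, the core that ROR receptors and other nuclear receptors bind. The matches are given in the direction of each gene, with AGGTCA or its reverse complement TGACCT in capitals. They lie at chr1:20730775-20730800 (Il17a, plus strand), chr1:20784313-20784338 (Il17f, minus strand), chr6:67491906-67491931 and chr6:67492069-67492094 (Il23r, minus strand) and chr17:8235989-8236014 (Ccr6, plus strand).
Il17a: ggttctgtgcTGACCTcatttgagga
Il17f: gtcagtaaggAGGTCAgtggaaacag
Il23r, nearer the start: atgaaaatgtAGGTCAgggctctgct
Il23r, farther from the start: tgaccaccatTGACCTgtttgacttc
Ccr6: gtgaaatcatTGACCTagttacataa
Thus 4 of the 7 genes with a window in the table held the letters, and Rora, Il17re and Sdc1 did not. Serpinb1a had no window. Among all genes with a window 18.1% of 27025 held AGGTCA on either strand, so the letters are common and mark no site by themselves.

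In NK1.1- cells 7 of the 8 genes fell in miR-155KI mice, against 1.50% of all genes tested, and Il17f, which was low in all libraries, missed the threshold. The count was 4 with WT replicate 1 as the only WT library and 3 without miR-155KI NK1.1- replicate 1. Il17a, Il23r, Il17re, Ccr6, Sdc1 and Serpinb1a were 7.01-fold to 9.08-fold lower, and Rora was 2.38-fold lower. In the NK1.1+ pool no gene of the 8 passed the test. The miR-155KI libraries of that pool were less alike than those of each other group. Their pairwise r of log2(CPM + 1) was 0.937 to 0.949, against 0.975 to 0.989 elsewhere. In bulk libraries, fewer cells of a type and less RNA per cell cannot be told apart. Klrb1c, which encodes NK1.1, was also lower in the NK1.1- pool, at 36.7, 50.6 and 42.9 CPM in miR-155KI against 70.9, 79.9 and 59.5 CPM in WT libraries. It fell by 0.71 ± 0.15 on the log2 scale (SE, edgeR adjusted p = 0.0229), and the part of this shift in the values of the 8 genes was not tested. The plot of levels by library shows the 12 values of each gene.

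**Figure D1:**
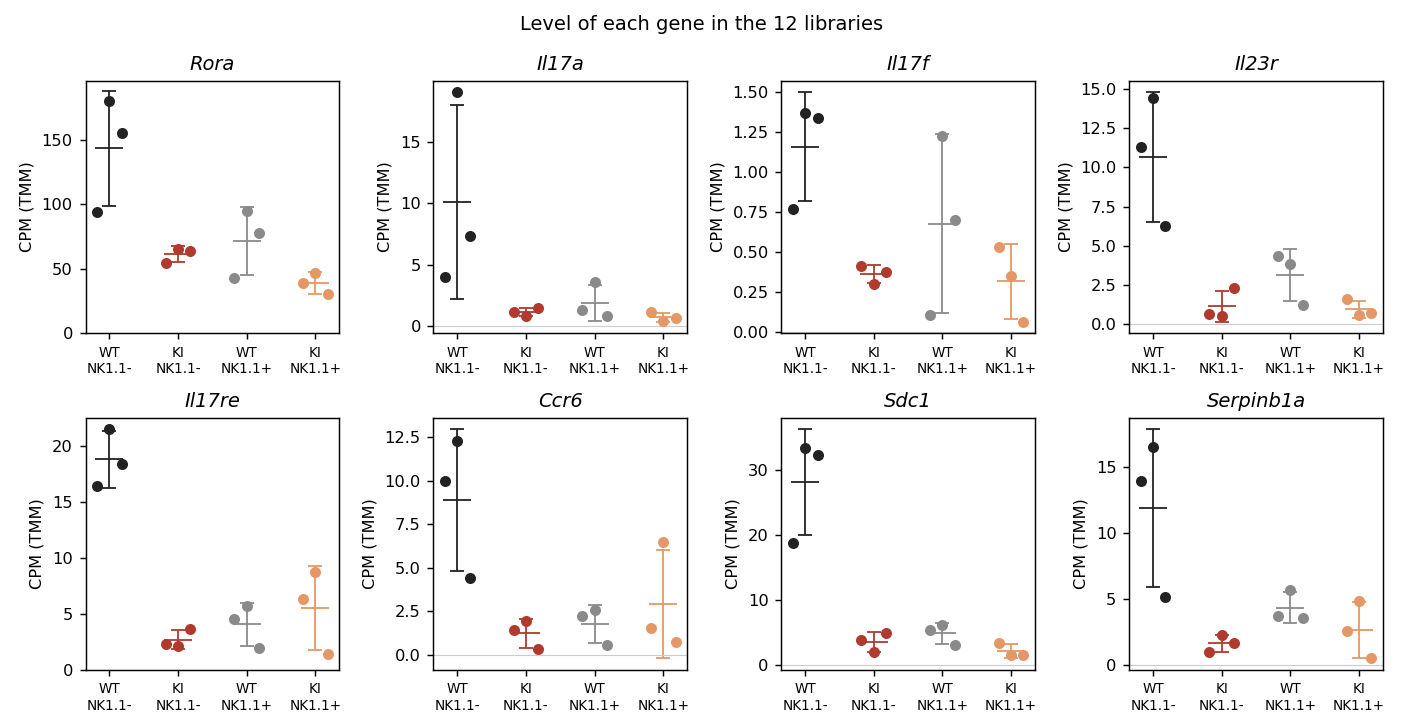
Level of each gene in CPM (TMM) in each of the 12 libraries (points, replicates 1 to 3 from left to right), with the group mean and SD; KI is miR-155KI, and each panel has its own linear axis. In every panel the 3 WT NK1.1- libraries lie above the 3 miR-155KI NK1.1- libraries.

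Rora (chr9:68653786-69388246, plus strand, GRCm38) encodes the nuclear receptor ROR alpha, a transcription factor that promotes IL-17 genes. WT NK1.1- libraries held 94.2, 181 and 156 CPM, and miR-155KI NK1.1- libraries held 54.6, 65.7 and 64.0 CPM. The groups did not overlap, and WT replicate 1 lay closest to the miR-155KI values. Rora fell by 1.25 ± 0.23 on the log2 scale (SE, n = 3 and 3; adjusted p = 0.0229, edgeR's quasi-likelihood test with Benjamini-Hochberg adjustment over all genes tested, as for each adjusted p here). With WT replicate 1 as the only WT library the log2 fold change was -0.62 (edgeR adjusted p = 0.0868) and no longer passed the test. Without any single miR-155KI library the adjusted p by edgeR was between 0.0681 and 0.118, and without WT replicate 3 it was 0.114.

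In the NK1.1+ pool Rora was 42.5, 94.8 and 77.6 CPM in WT and 38.9, 47.0 and 30.6 CPM in miR-155KI cells. WT replicate 1 lay among the miR-155KI libraries. The log2 fold change was -0.90 ± 0.28 (SE, edgeR adjusted p = 0.280), and without WT NK1.1+ replicate 1 it was -1.17 with an edgeR adjusted p of 0.0428. That fit kept only WT libraries with low Y-linked genes, which summed to 16.9 and 14.5 CPM, against 177 to 252 CPM in miR-155KI NK1.1+ libraries. Genotype and the sex-linked difference cannot be told apart in it. Rora was the 1 gene of the 8 that differed between the miR-155KI pools, where it fell by 0.66 ± 0.19 on the log2 scale from NK1.1- to NK1.1+ cells (edgeR adjusted p = 0.0459). That call was lost without any 1 of 5 of the 6 libraries, the exception being miR-155KI NK1.1+ replicate 2, with edgeR adjusted p between 0.0639 and 0.168. Between the WT pools the log2 difference was -1.04 ± 0.36 (edgeR adjusted p = 0.0963), and with the replicate number as a block, which pairs the WT pools, it was -1.06 (edgeR adjusted p = 5.20e-06). Exons of Rora share 82 of 13071 bases with Gm15511 on the other strand, and the sources used here do not say whether strand was used in counting.

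Il17a (chr1:20730905-20734496, plus strand) and Il17f (chr1:20777146-20790617, minus strand) encode the cytokines themselves and lie next to each other in a shared cluster. Il17a was 3.98, 19.0 and 7.31 CPM in WT NK1.1- libraries and 1.13, 0.827 and 1.50 CPM in miR-155KI NK1.1- libraries. All WT libraries were higher, and they spread widely, with replicate 2 far above the other two. Il17a fell by 3.14 ± 0.58 on the log2 scale (SE, 8.83-fold, 95% interval 3.56 to 21.9; edgeR adjusted p = 0.0207). Against WT replicate 1 alone, the lowest WT library, the log2 fold change was -1.77 (edgeR adjusted p = 0.290). Without any single miR-155KI library the edgeR adjusted p was between 0.108 and 0.139.

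In NK1.1+ cells Il17a was at 1.29, 3.56 and 0.801 CPM in WT and 1.13, 0.410 and 0.694 CPM in miR-155KI libraries, where the groups overlapped. The log2 fold change was -1.35 ± 0.85 (SE, 95% interval -3.22 to 0.52; edgeR adjusted p = 0.572). Between the WT pools Il17a was -2.47 ± 0.75 in NK1.1+ against NK1.1- cells (edgeR adjusted p = 0.0572), and it passed the test with the replicate block (-2.43, edgeR adjusted p = 7.46e-05). Between the miR-155KI pools it was -0.64 ± 0.75 (edgeR adjusted p = 0.649).

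Il17f was sparse. It had 11, 24 and 24 reads in WT NK1.1- libraries (0.768, 1.37 and 1.34 CPM) and 8, 4 and 7 reads in miR-155KI NK1.1- libraries (0.412, 0.301 and 0.375 CPM). The groups did not overlap, but the difference of -1.67 ± 0.61 on the log2 scale had an edgeR adjusted p of 0.161. Il17f passed the filter on low counts in this comparison only through its WT libraries. In NK1.1+ cells Il17f ranged from 2 to 21 reads in WT and from 1 to 8 reads in miR-155KI libraries, and a difference was not detectable at this depth (-1.10 ± 1.07, edgeR adjusted p = 0.733). Its sign there turned to 1.54 with WT replicate 1, the library with 2 reads, as the only WT library.

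Il23r (chr6:67422932-67491855, minus strand) encodes the IL-23-specific chain of the receptor through which IL-23 maintains IL-17-producing cells. It was 11.3, 14.4 and 6.25 CPM in WT NK1.1- libraries and 0.670, 0.527 and 2.30 CPM in miR-155KI NK1.1- libraries. The highest miR-155KI library was below the lowest WT library. Il23r fell by 3.18 ± 0.54 on the log2 scale (SE, 9.08-fold, 95% interval 3.93 to 21.0; edgeR adjusted p = 0.0116). With WT replicate 1 alone the value was -3.25 (edgeR adjusted p = 0.0495), and without miR-155KI replicate 1 the edgeR adjusted p was 0.0671.

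In NK1.1+ libraries Il23r was 4.34, 3.85 and 1.25 CPM in WT and 1.59, 0.585 and 0.757 CPM in miR-155KI cells. Only WT replicate 3 lay within the miR-155KI range, and the log2 fold change was -1.69 ± 0.77 (SE, 95% interval -3.39 to 0.011; edgeR adjusted p = 0.423). Within WT, Il23r fell by 1.79 ± 0.46 on the log2 scale from NK1.1- to NK1.1+ cells (edgeR adjusted p = 0.0199). That call was lost without WT NK1.1- replicate 1 or 2, with edgeR adjusted p of 0.0552 and 0.0734. Within miR-155KI the difference was -0.26 ± 0.84 (edgeR adjusted p = 0.888).

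Il17re (chr6:113458484-113470758, plus strand) encodes a chain of the receptor for IL-17C and is carried by IL-17-producing T cells. Its 3 WT NK1.1- libraries were close together, at 16.5, 21.6 and 18.5 CPM, against 2.32, 2.11 and 3.69 CPM in miR-155KI NK1.1- libraries. The groups lay far apart relative to their spread. Il17re fell by 2.81 ± 0.27 on the log2 scale (SE, 7.01-fold, 95% interval 4.69 to 10.5; edgeR adjusted p = 0.000114), which had the smallest p of the 8 genes. Its call held under each alternative and without each library, with adjusted p of at most 0.0188, and with WT replicate 1 alone it was -2.60 (edgeR adjusted p = 0.0108).

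In the NK1.1+ pool Il17re was 4.55, 5.72 and 1.95 CPM in WT and 6.37, 8.78 and 1.39 CPM in miR-155KI libraries. The groups overlapped and the mean was higher in miR-155KI cells, with a log2 fold change of 0.42 ± 0.69 (SE, edgeR adjusted p = 0.862) that became -0.08 without miR-155KI replicate 2. Within WT, Il17re fell by 2.24 ± 0.35 on the log2 scale from NK1.1- to NK1.1+ cells (edgeR adjusted p = 0.000914). Within miR-155KI cells the value was 1.03 ± 0.69 (edgeR adjusted p = 0.382).

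Ccr6 (chr17:8236043-8257141, plus strand) encodes the receptor for the chemokine CCL20 and marks iNKT17 and other IL-17-producing cells. It was 9.98, 12.3 and 4.41 CPM in WT NK1.1- libraries and 1.44, 1.96 and 0.321 CPM in miR-155KI NK1.1- libraries, where replicate 3 held 6 reads. The groups did not overlap. Ccr6 fell by 2.89 ± 0.60 on the log2 scale (SE, 7.39-fold, 95% interval 2.90 to 18.8; edgeR adjusted p = 0.0339). With WT replicate 1 alone the log2 fold change was -3.02 (edgeR adjusted p = 0.0818), and the call was also lost without WT replicate 2 (edgeR adjusted p = 0.0960) or miR-155KI replicate 1 (0.151).

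In NK1.1+ cells Ccr6 was 2.22, 2.57 and 0.551 CPM in WT and 1.53, 6.49 and 0.757 CPM in miR-155KI libraries. A single library, miR-155KI NK1.1+ replicate 2 with 111 reads, stood above the rest. The log2 fold change was 0.70 ± 0.90 (SE, 95% interval -1.29 to 2.70; edgeR adjusted p = 0.813) and became -0.65 without that library. The same library had the highest Rora, Il17re and Serpinb1a of its group but not the highest Il17a, Il17f, Il23r or Sdc1. It also had the highest summed level of the 7 macrophage and dendritic cell markers, 336 CPM against 222 and 91.5 CPM in the other miR-155KI NK1.1+ libraries and 11.5 to 15.6 CPM in WT NK1.1+ libraries. The part of such cells in the values was not tested. Within WT, Ccr6 fell by 2.36 ± 0.56 on the log2 scale from NK1.1- to NK1.1+ cells (edgeR adjusted p = 0.0144), a call lost without WT NK1.1+ replicate 1 (0.0532).

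Sdc1 (chr12:8771323-8793715, plus strand) encodes syndecan-1 (CD138), a heparan sulfate proteoglycan of the cell surface that marks iNKT17 cells and also plasma cells. It was 18.7, 33.3 and 32.2 CPM in WT NK1.1- libraries and 3.86, 2.03 and 4.92 CPM in miR-155KI NK1.1- libraries. The groups were well apart. Sdc1 fell by 2.96 ± 0.33 on the log2 scale (SE, 7.79-fold, 95% interval 4.72 to 12.9; edgeR adjusted p = 0.000804), and the call held under each alternative and without each library, with adjusted p of at most 0.0228. That largest value was with WT replicate 1 as the only WT library, where the log2 fold change was -2.36. The 6 plasma cell markers, none of them at 0 in all libraries of a group, summed to 999 CPM in WT NK1.1- replicate 1. They summed to 128 and 111 CPM in replicates 2 and 3, where Sdc1 was higher. In miR-155KI NK1.1- libraries they summed to 310, 104 and 91.8 CPM. The part of plasma cells in the values of the 8 genes was not tested.

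In NK1.1+ cells Sdc1 was 5.47, 6.25 and 3.10 CPM in WT and 3.52, 1.58 and 1.58 CPM in miR-155KI libraries. The ranges overlapped at WT replicate 3 and miR-155KI replicate 1, and the log2 fold change was -1.16 ± 0.61 (SE, edgeR adjusted p = 0.490). Within WT, Sdc1 fell by 2.54 ± 0.31 on the log2 scale from NK1.1- to NK1.1+ cells (edgeR adjusted p = 0.000214). Within miR-155KI the difference was -0.70 ± 0.64 (edgeR adjusted p = 0.543).

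Serpinb1a (chr13:32842092-32851185, minus strand) encodes an inhibitor of neutrophil serine proteases that IL-17-producing T cells also make. It was 14.0, 16.5 and 5.13 CPM in WT NK1.1- libraries and 0.979, 2.26 and 1.61 CPM in miR-155KI NK1.1- libraries. The groups did not overlap. Serpinb1a fell by 2.92 ± 0.47 on the log2 scale (SE, 7.57-fold, 95% interval 3.69 to 15.5; edgeR adjusted p = 0.00627). With WT replicate 1 alone the value was -3.13 (edgeR adjusted p = 0.00975), and without miR-155KI replicate 3 the edgeR adjusted p was 0.0734. Its close relatives Serpinb1b and Serpinb1c were at or below 0.150 and 0.400 CPM in all libraries, and the sources used here do not say how reads that fit several copies were assigned.

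In NK1.1+ cells Serpinb1a was 3.72, 5.66 and 3.55 CPM in WT and 2.59, 4.80 and 0.505 CPM in miR-155KI libraries, with overlapping groups (-0.73 ± 0.75, edgeR adjusted p = 0.750). Within WT it fell by 1.49 ± 0.41 on the log2 scale from NK1.1- to NK1.1+ cells (edgeR adjusted p = 0.0243), although WT NK1.1- replicate 3 lay inside the NK1.1+ range. That call was lost without WT NK1.1- replicate 1 or 2 and without WT NK1.1+ replicate 1 or 3, with edgeR adjusted p between 0.0737 and 0.0977. Within miR-155KI the value was 0.71 ± 0.83 (edgeR adjusted p = 0.645).

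Over the 8 genes, 7 passed the test as lower in miR-155KI NK1.1- cells, where 1.50% of all 13304 genes tested did, and 1.93% of all genes tested were higher. In all 8 genes every miR-155KI library was below every WT library, as in 9.93% of all genes tested. Of the 8, Il17f passed the filter on low counts only through its WT libraries, where it is higher, so its place in this count is no separate support. The median log2 fold change of the 8 was -2.90, and that of all genes tested was -0.0010. All 8 stayed below 0 under each alternative. Besides the settings given first, 4 passed the test without miR-155KI NK1.1- replicate 3. In one fit of all 12 libraries 5 passed, with Rora at an edgeR adjusted p of 0.0543 and Ccr6 at 0.149.

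**Figure D2:**
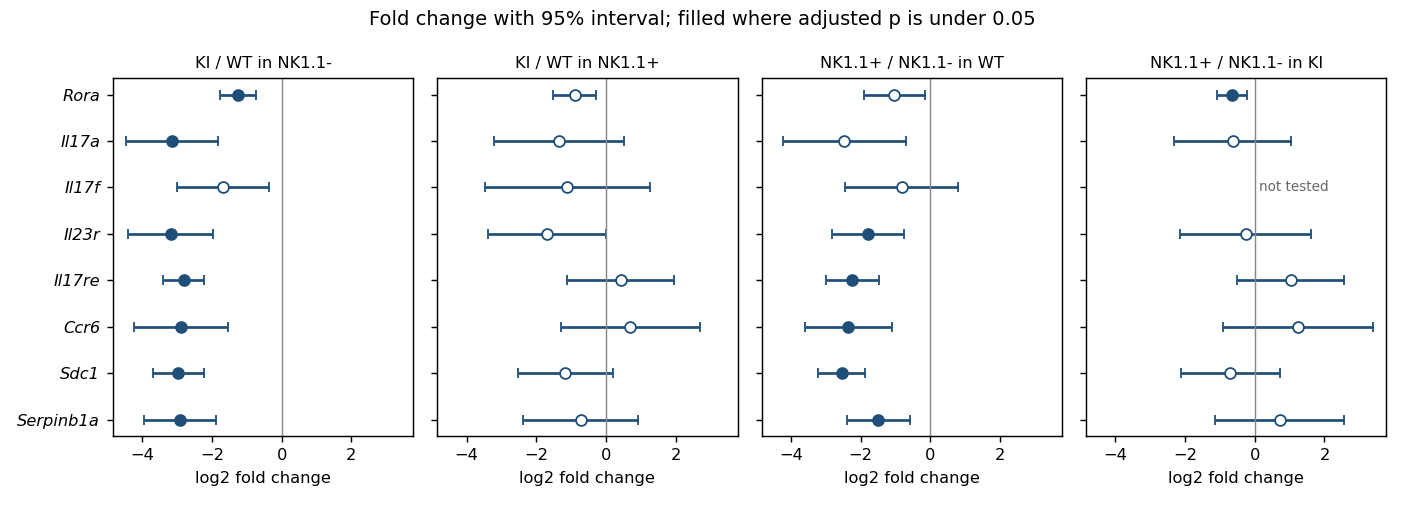
Log2 fold change of each gene with its 95% interval in 4 comparisons of 3 against 3 libraries (edgeR). Filled points have an adjusted p under 0.05. In the NK1.1- pool 7 of 8 points are filled and all lie below 0, and in the NK1.1+ pool none is filled.

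In the NK1.1+ pool 0 of the 8 genes passed edgeR's test, against 0% of 12991 genes tested that were lower and 0.0231% that were higher. At an unadjusted p under 0.05, 1 gene (Rora) passed, against 11.8% of all genes tested, so the 8 were near the background. By DESeq2 0 of the 8 passed after adjustment, against 1.86% of 12951 genes, and 2 did before it, against 13.2%. The log2 fold changes of the 8 ranged from -1.69 to 0.70 with a median of -1.002, and the median of all genes tested was 0.022. With WT replicate 1 alone the median of the 8 was -0.31. The 7 double-positive thymocyte markers summed to 404 CPM in miR-155KI NK1.1+ replicate 1 and to 133 and 198 CPM in replicates 2 and 3. In WT NK1.1+ libraries they summed to between 168 and 184 CPM. Dntt was 107 CPM in that miR-155KI library and at most 6.43 CPM in the other NK1.1+ libraries. The part of double-positive thymocytes in the values of the 8 genes was not tested.

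The genotype effect in NK1.1+ minus that in NK1.1- cells was above 0 for all 8 genes, from 0.34 (Rora) to 3.57 (Ccr6) on the log2 scale with a median of 1.79. None of the 8 passed the test of this interaction after adjustment, where 0.0278% of all 14401 genes tested did, so the effects of the pools were not shown to differ. At an unadjusted p under 0.05, 8.10% of all genes tested passed, and 4 of the 8 did: Il17re (3.23 ± 0.75, edgeR adjusted p = 0.197), Ccr6 (3.57 ± 1.13, adjusted p = 0.379), Sdc1 (1.80 ± 0.59, adjusted p = 0.384) and Serpinb1a (2.18 ± 0.88, adjusted p = 0.540). With the replicate number within a genotype as a block, which pairs the pools, 6 of the 8 had an unadjusted p under 0.05 by edgeR. So did 1247 of 14401 genes, and 0 of the 8 passed after adjustment. By DESeq2 Il17re passed after adjustment (3.26, adjusted p = 0.00432), as did 0.866% of 14316 genes. All of these values use the same 12 libraries as the comparisons within pools.

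Between the WT pools 5 of the 8 genes were lower in NK1.1+ cells (Il23r, Il17re, Ccr6, Sdc1 and Serpinb1a), against 10.9% of 13555 genes tested, and 9.89% of all genes tested were higher. The median of the 8 was -2.02, and that of all genes tested was 0.0079. With the replicate block, 7 of the 8 were lower. In one fit of all 12 libraries 4 were, and Il23r, Ccr6 and Serpinb1a missed the threshold (edgeR adjusted p = 0.0673, 0.0639 and 0.129) while Rora and Il17a passed. Without WT NK1.1- replicate 2 or without WT NK1.1+ replicate 1, 3 were. Between the miR-155KI pools 1 of the 7 genes tested, Rora, was lower, against 6.15% of 12942 genes tested, and 7.92% of all genes tested were higher. The median of the 7 was -0.26, and that of all genes tested was 0.031. The WT NK1.1- libraries enter both the comparison of genotype in NK1.1- cells and that of the WT pools, so those values are not independent of each other.

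The group means of Rora, Il17a, Il17f, Il23r and Sdc1 fell in the order WT NK1.1- first, then WT NK1.1+, then the NK1.1- and last the NK1.1+ pool of miR-155KI. For Il17re and Ccr6 the NK1.1+ pool of miR-155KI came second, ahead of WT NK1.1+, and the NK1.1- pool of miR-155KI came last. Serpinb1a ran from WT NK1.1- through WT NK1.1+ to the NK1.1+ and last the NK1.1- pool of miR-155KI. WT NK1.1- was thus highest for each gene, and its libraries lay wholly above the next group for Il17a, Il23r, Il17re and Sdc1. Below it neighbouring groups overlapped for all genes but Rora, whose miR-155KI NK1.1- libraries (54.6 to 65.7 CPM) lay above the miR-155KI NK1.1+ libraries (30.6 to 47.0 CPM).

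Per kilobase of merged exon, the mean level in WT NK1.1- libraries was highest for Rora, at 11.0 ± 3.40 CPM per kilobase (SD, n = 3), followed by Il17a at 8.62 ± 6.73 and Sdc1 at 7.37 ± 2.13. Serpinb1a followed at 5.16 ± 2.60, Il23r at 4.28 ± 1.66, Ccr6 at 3.83 ± 1.75 and Il17re at 3.21 ± 0.437 CPM per kilobase. Neighbours in this order overlapped, except that Il17f, at 0.574 ± 0.168 CPM per kilobase, lay below all the others. In miR-155KI NK1.1- libraries Rora, at 4.70 ± 0.459 CPM per kilobase, lay above every other gene of the 8, none of which exceeded 1.29 CPM per kilobase in a library.

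Across the 12 libraries the 8 genes varied together. The 28 pairwise Pearson correlations of log2(CPM + 1) ranged from 0.524 (Il17f and Ccr6) to 0.938 (Il17a and Sdc1), with a median of 0.781. The libraries fall into 4 groups and the difference between WT NK1.1- and the rest is part of each value. The genes most like the mean scaled profile of the 8, among 9855 candidates, were Fam83a (r = 0.948), Mmp25 (0.934), Pxdc1 (0.916), Plxnd1 (0.911), Adam12 (0.905), Tnfrsf25 (0.900), Il1r1 (0.899), Nr1d1 (0.891), Fbxo17 (0.889) and Tuft1 (0.884) over 12 libraries. Fam83a, for instance, was 10.2 CPM on average in WT NK1.1-, 1.46 in miR-155KI NK1.1-, 2.00 in WT NK1.1+ and 0.723 in miR-155KI NK1.1+ cells. Mmp25 encodes a membrane-bound matrix metalloproteinase, Tnfrsf25 the receptor of TL1A, and Nr1d1 the heme-binding nuclear receptor REV-ERB alpha.

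**Figure D3:**
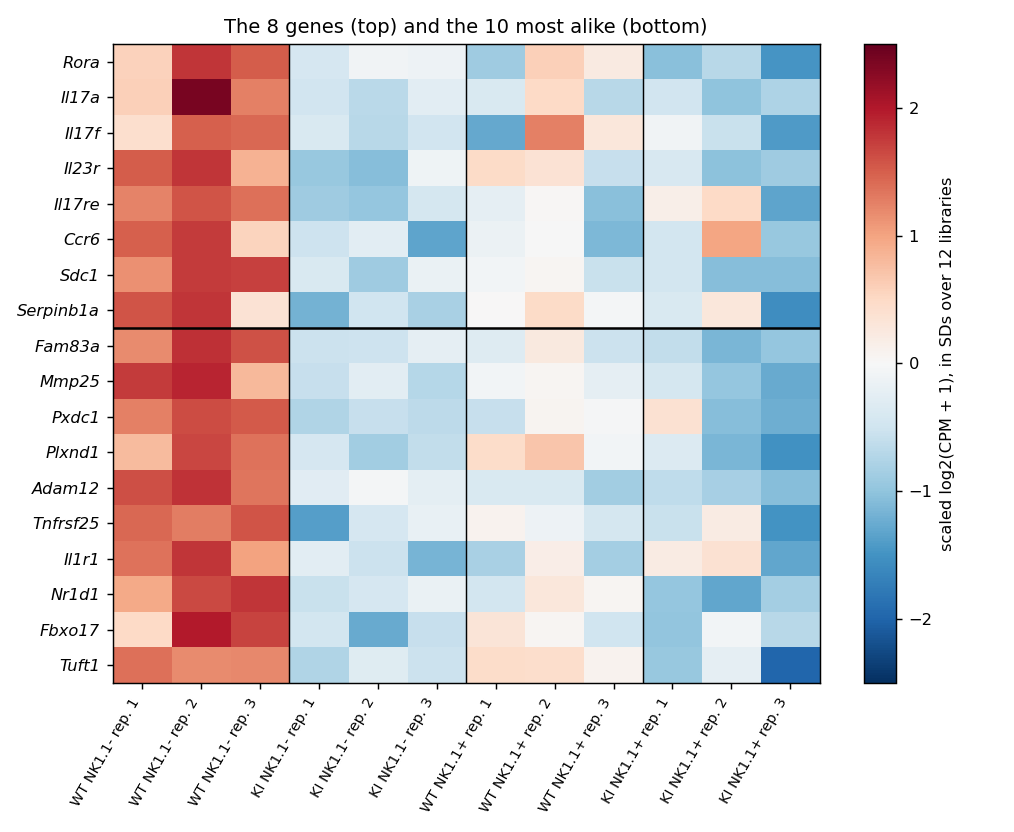
Scaled log2(CPM + 1) of the 8 genes (above the line) and of the 10 genes most like their mean profile (below it) in the 12 libraries; KI is miR-155KI, red is above and blue below a gene's mean over all libraries. The WT NK1.1- libraries are red in each row. Among the other libraries the highest values are Il17f in WT NK1.1+ replicate 2 (1.26) and Ccr6 in miR-155KI NK1.1+ replicate 2 (0.98). Paler red also occurs elsewhere.

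Other genes of the IL-17 pathway were followed as 40 genes in 5 groups, chosen with earlier results of these data known. In the NK1.1- pool 34 of them were tested, of which 7 fell and 2 rose in miR-155KI cells, against 1.50% and 1.93% of all genes tested, and their median log2 fold change was -0.36. By DESeq2 11 fell and 3 rose, as did 490 and 472 of 13280 genes. In one fit of all 12 libraries only 2 fell and 3 rose, as did 70 and 69 of 14401 genes. Leaving out each library gave 5 to 12 that fell, among 88 to 580 genes called lower. Their fold changes with WT replicate 1 as the only WT library are not given here. None of the related genes passed in the NK1.1+ pool by edgeR or by DESeq2, and 34 were tested there. Of the 10 transcription factors known to act in IL-17-producing cells, none passed the test in the NK1.1- pool, 7 were below 0 and their median log2 fold change was -0.35. Bhlhe40, a basic helix-loop-helix factor, was the farthest below 0, at 62.4, 81.2 and 70.9 CPM in miR-155KI against 119, 398 and 281 CPM in WT libraries (-1.93 ± 0.51, edgeR adjusted p = 0.158). Sox13, a factor of IL-17-producing gamma delta T cells, was the farthest above 0, at 90.3, 94.2 and 30.7 CPM in miR-155KI against 14.0, 25.0 and 16.5 CPM in WT libraries (1.93 ± 0.54, edgeR adjusted p = 0.164).

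Among 9 receptors of cytokines that feed the program, Il1r1, the signalling receptor of IL-1, fell by 2.81 ± 0.41 on the log2 scale, from 14.1, 20.3 and 10.5 CPM in WT to 3.14, 2.33 and 1.02 CPM in miR-155KI NK1.1- libraries (edgeR adjusted p = 0.00315). Il21r, the IL-21 receptor, fell by 0.71 ± 0.15 (edgeR adjusted p = 0.0247). Both thus moved the way of the 8 genes, Il21r by much less. Of the 8 other ligands, Il21 rose by 2.06 ± 0.24, from 5.65, 4.23 and 3.40 CPM to 18.5, 19.3 and 18.1 CPM (edgeR adjusted p = 0.000467), and Il22 was the only other one tested. Il17b, Il17c, Il17d, Il25, Csf2 and Ccl20 did not pass the filter in NK1.1- cells.

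The IL-17 receptor chains went apart. Il17rc fell by 2.50 ± 0.55 on the log2 scale (edgeR adjusted p = 0.0266), at 1.33, 2.57 and 2.96 CPM in WT and 0.464, 0.376 and 0.375 CPM in miR-155KI NK1.1- libraries. These were 19, 45 and 53 reads in WT and only 9, 5 and 7 reads in miR-155KI libraries. Il17rc thus passed the filter on low counts only through its WT libraries, which limits its place among the related genes that fell. Il17rb, the IL-25 receptor known from iNKT2 cells, rose by 0.89 ± 0.11, from 244, 198 and 204 CPM to 424, 411 and 375 CPM (edgeR adjusted p = 0.000705). Il17ra, the chain shared by the family, was -0.24 ± 0.13 (edgeR adjusted p = 0.373).

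Of 9 further markers of IL-17-producing innate-like T cells, 4 fell and 5 missed the threshold in miR-155KI NK1.1- cells. Ltb4r1, a leukotriene B4 receptor, fell by 2.94 ± 0.46 (edgeR adjusted p = 0.00302), Aqp3, a water and glycerol channel, by 2.18 ± 0.27 (0.000776), Tmem176a by 1.89 ± 0.25 (0.00111) and Tmem176b by 1.34 ± 0.22 (0.00418), all on the log2 scale. Cd163l1, Ramp1 and Kcnk1 lay between -0.03 and 0.07. The 6 listed markers of gamma delta T cells, which the TCR beta gate should remove, summed to between 392 and 619 CPM in WT and between 710 and 1016 CPM in miR-155KI NK1.1- libraries. Most of that sum came from Tcrg-C1, Tcrg-C2 and Tcrg-C4, of which Tcrg-C4 rose by 1.00 ± 0.16 on the log2 scale (edgeR adjusted p = 0.00496). The delta chain gene Trdc was 1.95, 0.801 and 0.558 CPM in WT and 1.29, 1.13 and 0.589 CPM in miR-155KI NK1.1- libraries (-0.14 ± 0.62, edgeR adjusted p = 0.939), and Trdv4 was at most 0.206 CPM in all libraries. In the NK1.1+ pool Trdc was 16.6 CPM in miR-155KI replicate 1 and at most 1.45 CPM in the other libraries. The part of gamma delta T cells in the values of the 8 genes was not tested. The 5 markers of group 3 innate lymphoid cells summed to between 114 and 142 CPM in WT and between 149 and 192 CPM in miR-155KI NK1.1- libraries, and they did not move together. Cxcr5 rose by 1.95 ± 0.26 (edgeR adjusted p = 0.00252) and Tnfsf11 by 0.96 ± 0.13 (0.00104), while Nrp1 was -0.35 ± 0.14 (0.192) and Il22 was -1.13 ± 0.85 (0.551), all on the log2 scale.

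**Figure D4:**
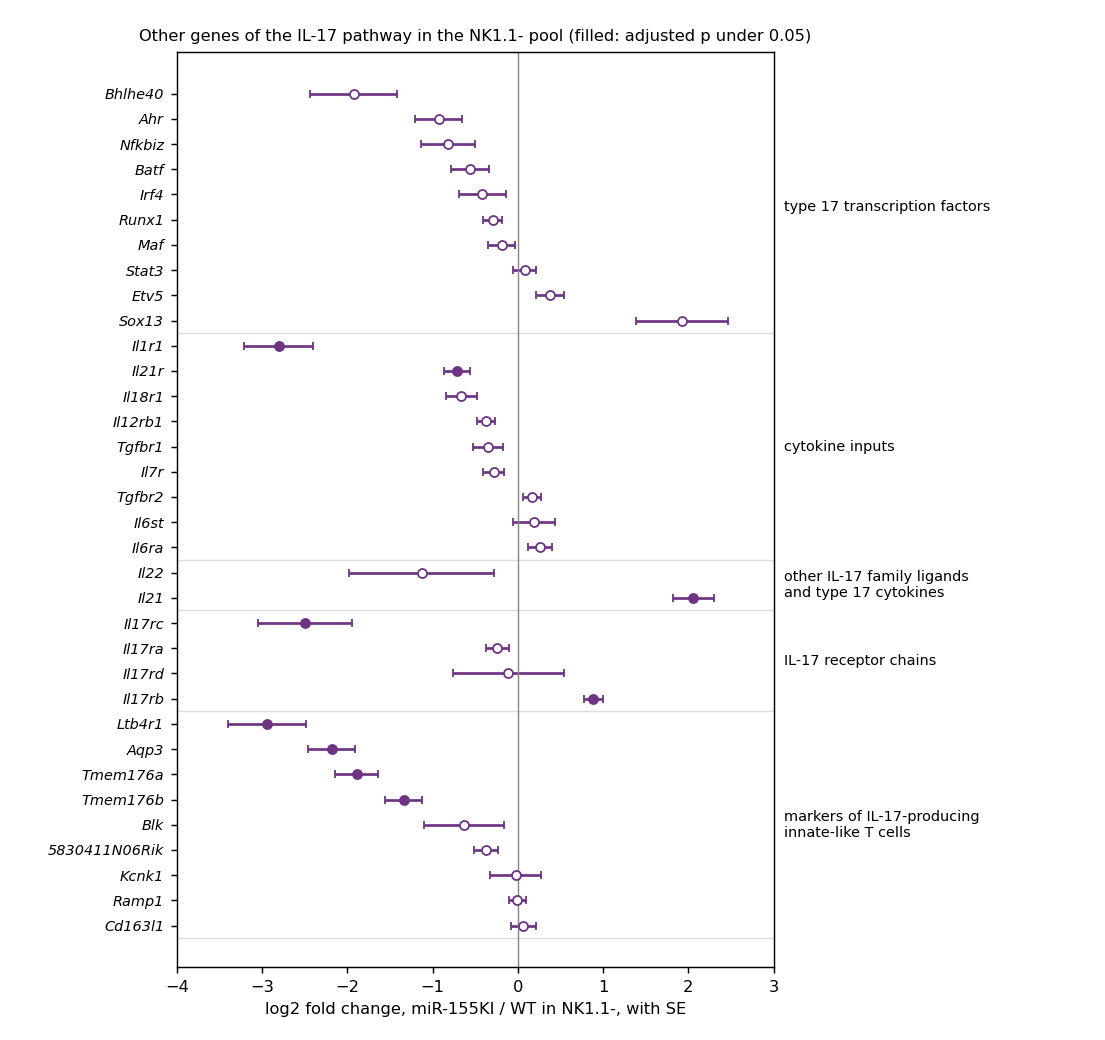
Log2 fold change with its SE, miR-155KI against WT in the NK1.1- pool, for the 34 tested genes of the IL-17 pathway outside the 8, by group (edgeR). Filled points have an adjusted p under 0.05. The 7 genes that fell are Il1r1, Il21r, Il17rc, Ltb4r1, Aqp3, Tmem176a and Tmem176b, and the 2 that rose are Il21 and Il17rb.

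Between the WT pools 10 of the 34 related genes tested were lower and 4 higher in NK1.1+ cells, against 10.9% and 9.89% of all genes tested, so the 4 higher were near the background. Between the miR-155KI pools 8 of 34 were lower and 8 higher, against 6.15% and 7.92%. Il1r1 fell by 2.52 ± 0.45 on the log2 scale from NK1.1- to NK1.1+ in WT (edgeR adjusted p = 0.00302) and was 0.86 ± 0.79 in miR-155KI cells (edgeR adjusted p = 0.547). Aqp3 rose by 1.72 ± 0.36 from NK1.1- to NK1.1+ in miR-155KI cells (edgeR adjusted p = 0.0125) and was -0.23 ± 0.23 in WT (edgeR adjusted p = 0.542). The interaction was 3.35 ± 0.90 for Il1r1 (edgeR adjusted p = 0.308) and 1.92 ± 0.41 for Aqp3 (edgeR adjusted p = 0.147), so neither difference between genotypes passed the test. Blk, a Src family kinase of innate-like lymphocytes, was lower in NK1.1+ cells of both genotypes, by 2.27 ± 0.27 in WT (edgeR adjusted p = 0.000240) and by 1.37 ± 0.35 in miR-155KI cells (edgeR adjusted p = 0.0304).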

How the data were processed

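The authors deposited raw counts for each gene and, as CPM, a normalized signal that equals the counts multiplied by a constant for each library. The submitters' notes name bcl2fastq 2.17.1.14 and the build GRCm38 (mm10), and the sources used here do not give the counting program. The labels name the SMART-Seq v4 kit and the study's methods TruSeq. No column of per-sample values was left unused.

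The counts were tested in R 4.3.3 with edgeR 4.0.16 (TMM, default filter on low counts, robust quasi-likelihood test, Benjamini-Hochberg adjustment over all genes tested, threshold 0.05), each comparison on its own libraries and the interaction on all 12. Intervals are 95%. DESeq2 1.42.0, limma 3.58.1 on the deposited signal and the other alternatives are given in the closing section. The fits were tested on simulated data with known changes. The simulation gave all genes the same dispersion and changed only genes above a minimum level. It therefore does not cover sparse genes such as Il17f, or sex-linked and cell type differences between libraries. Levels per kilobase used merged exons of GENCODE M21. A level under 3 counts (0.150 to 0.226 CPM by library) is at the floor, and floors cover counting error only, while intervals of fold changes also cover the spread between libraries.

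The 8 genes and the gene lists were chosen with earlier results of these data known. Named are the 8 genes in every comparison, related genes that pass the test or lie outside its filter, the 10 genes most like the mean profile and the 1 most like each gene (at least 5 CPM in one group, no unnamed predicted genes), and Mir155hg; Sox13, Bhlhe40, Il17ra, Blk, Ramp1, Kcnk1, Cd163l1, Il22 and single cell type markers were also named after their values were seen. Some genes are not reported here. In WT, deviations from the group mean correlated between same-numbered NK1.1- and NK1.1+ libraries (r = 0.392, 0.258 and 0.190). This is a hint that the number pairs them, and the sources used here do not say that a number marks a mouse. Between the miR-155KI pools r was 0.141, 0.101 and 0.0732, each best with its own number. In each comparison but that of the WT pools at least 1 pair was at or under 0.1.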

Additional observations from a re-analysis of the deposited data

How the results depend on the processing

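In the NK1.1- comparison of genotype, edgeR calls of all genes (457) became 962 with DESeq2, 1048 with no filter on low counts, 139 with all 12 libraries in one fit and 139 with WT replicate 1 as the only WT library. The last setting called 4 of the 8 genes. Leaving out each library gave 188 to 944 genes and 3 to 7 of the 8. In NK1.1+ cells (3 genes) the counts were 241 with DESeq2, 282 with no filter (1 of the 8, Rora), 60 in one fit and 1 with WT replicate 1 alone, where Il17f turned to 1.54. Leaving out each library gave 1 to 154 genes and 0 to 1 of the 8, with Il17re between -0.078 (without miR-155KI NK1.1+ replicate 2) and 0.88 and Ccr6 between -0.65 (without the same library) and 1.16. For the interaction (4 genes) they were 124 with DESeq2 (1 of the 8), 7 with RLE size factors, 162 with no filter (2 of the 8) and 1 with WT replicate 1 alone; leaving out each library gave 1 to 46 genes and 0 to 1 of the 8. Between the WT pools (2819 genes) leaving out each library gave 1850 to 3285 genes and 3 to 6 of the 8. Between the miR-155KI pools (1821 genes) it gave 815 to 2607 genes and 0 to 1 of the 8, and all 12 libraries in one fit called 0 of the 8. There the median lay between -0.67 and 0.68 and Il23r between -0.80 and 0.68, both positive without miR-155KI NK1.1- replicate 3, and Ccr6 lay between -0.13 and 1.71 and Serpinb1a between -0.066 and 1.20, both negative without miR-155KI NK1.1+ replicate 2. Among the fits of genotype that left out a library, the highest counts, 944 and 154 genes, came without WT replicate 1 of the pool. That is the WT library with high Y-linked genes. Leaving out a library also leaves fewer samples. The cause of these shifts was not tested.

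With the replicate block the genes called were 737 in NK1.1- cells (7 of the 8), 7 in NK1.1+ cells, 23 for the interaction and 4053 between the WT pools (7 of the 8). Apart from Rora and Il17a between the WT pools, the block changed no call of the 8. In NK1.1- cells same-numbered libraries of the genotypes had r = 0.117, 0.243 and 0.0996, each best with its own number, a hint from the data and not the design. DESeq2 added Rora and Il17a between the WT pools and Il17re for the interaction. RLE size factors and limma on log2(CPM + 1) or log2(CPM + 0.1) changed no call of the 8, except that Il17a passed by limma between the WT pools. Depth limits Il17f, with 1 to 24 reads a library, most.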

Other observations

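The single gene most like each of the 8 was taken by the highest Pearson correlation of log2(CPM + 1) over the 12 libraries, which fall into 4 groups. Rora was closest to Nr1d1 (r = 0.935), which encodes REV-ERB alpha, and Il17a and Sdc1 were both closest to Fam83a (r = 0.957 and 0.985). Il17f was closest to Marcksl1 (0.933), Il23r to Cd72 (0.941), Il17re to Mycn (0.940), Ccr6 to Il1r1 (0.914) and Serpinb1a to Tuft1 (0.891). Mycn, an N-Myc transcription factor gene, was on average 7.35 CPM in WT NK1.1-, 1.25 in miR-155KI NK1.1-, 1.44 in WT NK1.1+ and 3.17 in miR-155KI NK1.1+ cells, so it shared with Il17re the higher mean in miR-155KI than in WT NK1.1+ cells.

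Family relatives of the 8 genes were mostly low. Rorb, a relative of Rora, averaged 0.926 CPM in WT and 1.93 CPM in miR-155KI cells of the NK1.1- pool (1.04 ± 0.51 on the log2 scale, edgeR adjusted p = 0.301). Among the syndecans Sdc3 was 9.63 CPM in WT and 9.85 CPM in miR-155KI cells (0.02 ± 0.24, edgeR adjusted p = 0.980), and Sdc4 was 1.02 CPM in WT and 0.260 CPM in miR-155KI cells (-1.87 ± 0.82, edgeR adjusted p = 0.245). None of the 3 relatives tested passed.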
